A study of Mus musculus with 3 samples.

Results

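The abundant long intergenic noncoding RNAs (lincRNAs) of stressed mouse prelimbic cortex (PrL) were 103 genes. They were the genes that the deposited annotation calls lincRNA and whose mean FPKM over the 3 libraries was at least 2, without the imprinted Meg3, Rian, Mirg, H19, Peg13, Airn and Kcnq1ot1. FPKM is the number of sequenced fragments scaled by gene length and by library depth. Of these imprinted genes only Meg3 reached the limit, so the members were 103 of 104 lincRNA genes above it, of 5559 lincRNA genes and of 54532 genes in all. As the level chose the members, their abundance is a description and not a result. At the limit, C130083M11Rik, Gm44053 and A330048O09Rik lay just inside with mean FPKM of 2.01, 2.03 and 2.04, and 1700048O20Rik, Gm17322 and Gm20735 lay just outside with 1.95, 1.94 and 1.93.

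Each group had 1 library. The CUMS oe-circ group had received rAAV-hSyn-circFKBP8-bGH-polyA-CMV-EGFP, which carries the circular RNA circFKBP8(5S,6). The CUMS oe-pep group had received an rAAV with hSyn, peptide-3×Flag, then P2A-EGFP and a hGH-polyA end, which carries cFKBP8, the protein encoded by that circular RNA. The CUMS vehicle group had received the empty rAAV-hSyn-bGH-polyA-CMV-EGFP. All 3 viruses were of serotype AAV/9 and were injected into the PrL on both sides. They used the hSyn promoter, which is active in neurons, so that other cells of the tissue were not meant to express the insert. The animals were male C57BL/6J mice, 6 to 8 weeks old, and vector expression was checked 2 weeks after injection. All groups then went through 5 weeks of chronic unpredictable mild stress (CUMS), and no unstressed library was analysed here. The number of mice behind a library was not given in the sources used here. With 1 library per group no difference has a replicate check, so ratios compare libraries, and their intervals cover counting error only.

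lincRNAs are transcribed by RNA polymerase II, are mostly spliced and polyadenylated, and lie between protein-coding genes without a long reading frame of their own. Some act in the nucleus, such as Malat1 in nuclear speckles and Neat1, the scaffold of paraspeckles. Others act in the cytoplasm, such as Norad, which binds Pumilio proteins, and Cyrano, which directs the decay of the miRNA miR-7. A further group is made mainly as carriers of miRNAs or of small nucleolar RNAs (snoRNAs), which are cut out of the transcript. The label lincRNA is an annotation and not a proof of function, and pseudogene copies and short reading frames are found under it.

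The sequences below mark what is known of the members by their sequence. The longest transcript of each of 5555 lincRNA genes was searched on its sense strand. TACTAAC is the branch point sequence that splicing factor 1 binds, and Miat is known for repeats of it. Miat held 6 copies, the most of any lincRNA, against at least 1 copy in 3.82% of all lincRNA genes and in 13.7% of those of 4000 bases or more, and per kilobase it ranked 101. TGTANATA is the element that Pumilio proteins bind, and 2900097C17Rik, which is the mouse Norad, held 11 copies, again the most of any lincRNA. At least 1 copy was found in 14.1% of all lincRNA genes and in 43.1% of those of 4000 bases or more, and Norad ranked 22 per kilobase. The windows with the copies in capitals are shown 5′ to 3′, Miat from chr5:112217277-112217456 and Norad from chr2:156391314-156391463, both on the minus strand of mm10.
Miat: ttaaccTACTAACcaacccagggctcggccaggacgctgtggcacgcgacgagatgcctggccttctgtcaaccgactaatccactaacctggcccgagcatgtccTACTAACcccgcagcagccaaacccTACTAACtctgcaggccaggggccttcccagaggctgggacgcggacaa
Norad: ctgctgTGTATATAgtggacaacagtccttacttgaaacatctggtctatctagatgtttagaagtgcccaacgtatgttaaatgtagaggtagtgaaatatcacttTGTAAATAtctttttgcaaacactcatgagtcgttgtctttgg

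Malat1 and Neat1 are known to end in a triple helix of U-rich and A-rich stretches that stands in for a poly(A) tail. Both lie on the minus strand of chromosome 19, and the stretches with the U-rich and A-rich runs in capitals come from chr19:5795982-5796081 for Malat1 and chr19:5824708-5824807 for Neat1. They are shown because Malat1 is a member on which the results turn, and Neat1 is its neighbor with the same kind of end. The A-rich run AAAAAGCAAAA was present in 23 of 5555 lincRNA genes, 0.414%, and in 3 members (Malat1, Neat1 and Gm16701). The U-rich run TTTTTCTTTT was present in 2.66%, and Malat1 alone had both within 100 bases in this order.
Malat1: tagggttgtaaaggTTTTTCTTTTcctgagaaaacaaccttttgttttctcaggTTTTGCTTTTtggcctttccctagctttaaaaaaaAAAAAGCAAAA
Neat1: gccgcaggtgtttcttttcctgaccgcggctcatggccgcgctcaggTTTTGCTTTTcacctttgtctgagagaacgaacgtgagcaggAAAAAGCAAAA

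Of the 103 members, 10 contained miRNA genes, 13 in all, and 5 contained snoRNA or related small Cajal body RNA genes, 9 in all. The 3 genes of miR-9, a miRNA of neural progenitors and neurons, all lay in members, in Mir9-3hg on chromosome 7, in C130071C03Rik on chromosome 13 and in Gm3764 on chromosome 3. They give the same mature miRNAs from chr7:79505279-79505301, chr13:83738821-83738843 and chr3:88215613-88215635 for miR-9-5p. Mir124a-1hg and Mir124-2hg hold genes of miR-124, the most neuron-specific of the known miRNAs. E130102H24Rik held the gene of miR-101a, and 4833445I07Rik held those of miR-191 and miR-425. The mature forms from RefSeq (GRCm38.p6) are shown with the seed, bases 2 to 8 that pair with targets, in capitals, since these are the products the hosts are known for, and no seed is shared among them.
miR-9-5p: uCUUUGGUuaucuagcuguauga
miR-9-3p: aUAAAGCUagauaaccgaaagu
miR-101a-3p: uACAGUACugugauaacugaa
miR-191-5p: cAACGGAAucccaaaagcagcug
miR-425-5p: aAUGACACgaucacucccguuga

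All members were found in GENCODE vM21, 102 with the same coordinates and 100 with the type lincRNA, and they lay on 19 chromosomes. RefSeq matched 72 of them, 67 by symbol and 5 by an older symbol and place. By these matches 62 were a long noncoding RNA, 8 protein-coding, 1 a pseudogene and 1 a transcribed pseudogene. The 8 include 4930516B21Rik, which was matched to Acvr2b, so its own type in RefSeq is uncertain. Among the protein-coding were 6330403K07Rik, Tmem250-ps and Dbpht2, which are in the 10 most abundant members.

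All 5 general neuron and 10 excitatory cortical neuron markers were measured. By the same limit all 12 striatal projection neuron and 13 basal forebrain, septum and hypothalamus markers were measured too. Being measured thus does not set cortex apart from these tissues. Marker levels of several cell types differed between the libraries. Of 12 striatal projection neuron markers, 12 were more than 1.5-fold lower in CUMS oe-circ, with a summed FPKM of 313 in CUMS oe-circ, 728 in CUMS oe-pep and 837 in CUMS vehicle. All 13 markers of basal forebrain, septum and hypothalamus were more than 2-fold lower in CUMS oe-circ, and 11 were more than 1.5-fold lower in CUMS oe-pep, with sums of 7.15, 17.98 and 38.7. Among all genes whose mean FPKM reached 0.1, the limit for list genes, 11.4% were more than 1.5-fold lower in CUMS oe-circ and 6.42% more than 2-fold lower. In CUMS oe-pep 9.05% of them were more than 1.5-fold lower. Excitatory cortical markers had a median log2 ratio of 0.38 in CUMS oe-circ and 0.14 in CUMS oe-pep, and 10 oligodendrocyte markers summed to 884 in CUMS oe-circ, 1543 in CUMS oe-pep and 1037 in CUMS vehicle. None of these defining markers was at 0 in any library. Fewer cells of a type and less RNA per cell cannot be told apart in bulk tissue. The part of these differences in the ratios of the lincRNAs was not tested.

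Reads behind each FPKM value could be recovered as whole numbers, and the libraries held 14413544 (CUMS oe-circ), 16410635 (CUMS oe-pep) and 18084058 (CUMS vehicle) reads in genes. The members took 56357 reads in CUMS oe-circ, 61904 in CUMS oe-pep and 71694 in CUMS vehicle. This was 0.391%, 0.377% and 0.396% of the reads in genes, in the same order, so their share of the libraries was nearly equal. The median FPKM of the members was 3.77 in CUMS oe-circ, 3.80 in CUMS oe-pep and 3.99 in CUMS vehicle. The 10 highest members held most of the signal, the top 3 together taking 45.5%, 47.2% and 47.7% of the summed FPKM of the members and the top 10 taking 63.7%, 59.1% and 60.1%. CUMS oe-circ was the highest library for 37 members, CUMS oe-pep for 29 and CUMS vehicle for 37.

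2900097C17Rik (Norad), the most abundant, had an FPKM of 288 in CUMS oe-circ, 261 in CUMS oe-pep and 288 in CUMS vehicle, from 20612, 21459 and 26204 reads. Its ratio to CUMS vehicle was 1.001 (95% interval 0.982 to 1.02) in oe-circ and 0.905 (0.889 to 0.921) in oe-pep, so that CUMS oe-pep was the low library by an amount larger than counting error. 6330403K07Rik, a short transcript on chromosome 11, had an FPKM of 163, 154 and 167, with ratios of 0.977 (0.935 to 1.02) and 0.921 (0.882 to 0.962). 1700020I14Rik (Oip5os1, the mouse Cyrano) had 73.1, 67.7 and 61.2, and here both overexpression libraries were above CUMS vehicle, with ratios of 1.19 (1.16 to 1.23) and 1.11 (1.07 to 1.14). Gm10076 was the fourth by its mean, with 97.9 in CUMS oe-circ, 11.04 in CUMS oe-pep and 12.7 in CUMS vehicle, and stood apart from all other members.

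Tmem250-ps had 28.7, 27.2 and 28.7, B230209E15Rik 18.5, 17.6 and 18.8, and 3300002P13Rik 15.7, 14.4 and 18.4 FPKM in CUMS oe-circ, CUMS oe-pep and CUMS vehicle. Dbpht2 had 15.5, 12.8 and 14.3 and Gm20300 had 15.3, 12.6 and 12.6 in the same order. All of these were within 1.5-fold of CUMS vehicle in both comparisons. Among the 10 most abundant members Malat1 and Gm10076 alone were not, both in CUMS oe-circ.

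**Figure D1:**
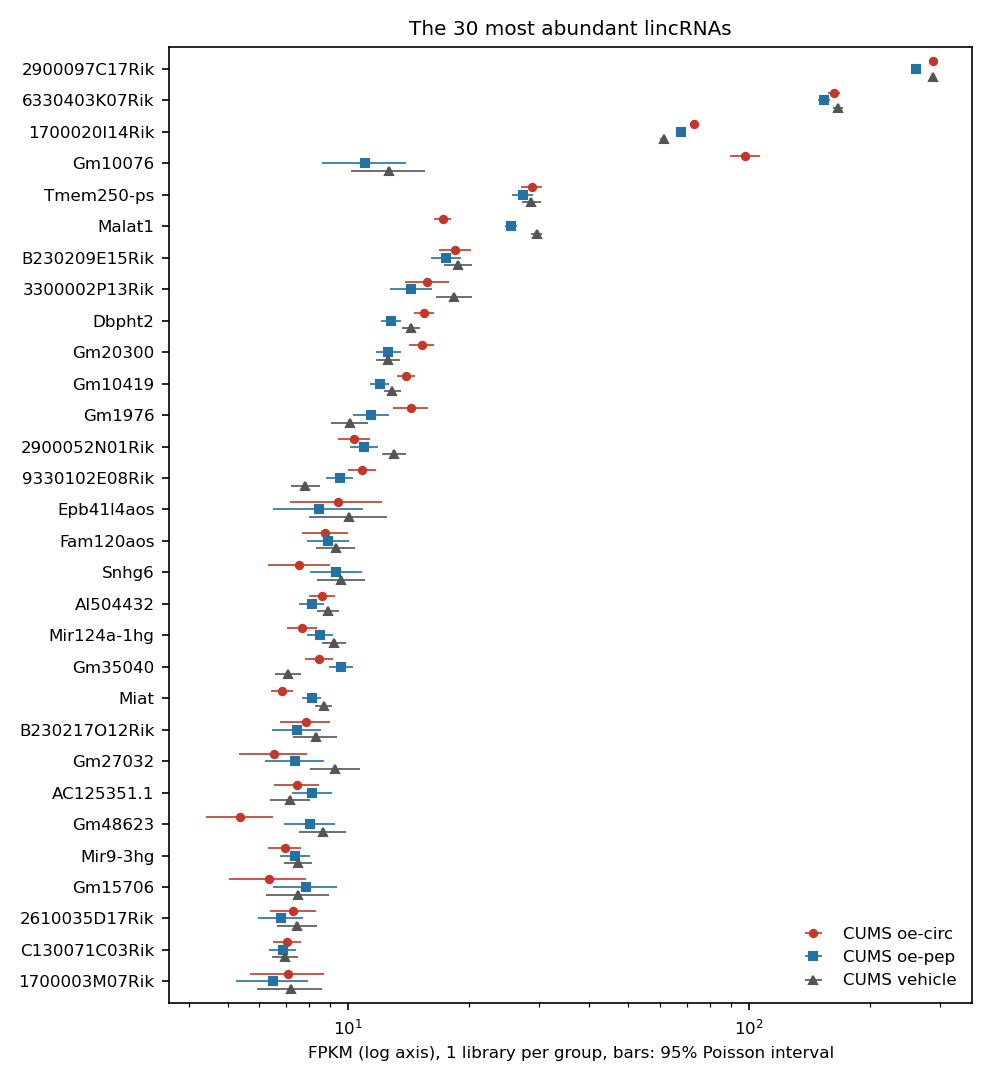
FPKM of the 30 most abundant lincRNAs (log axis) in the CUMS oe-circ, CUMS oe-pep and CUMS vehicle libraries, 1 library each, with 95% Poisson bars that cover counting error only. Gm10076 stands apart at 97.9 in CUMS oe-circ, against 11.04 in CUMS oe-pep and 12.7 in CUMS vehicle, and Malat1 is low in CUMS oe-circ at 17.2.

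Ratios were taken on the log2(FPKM + 0.1) scale, which understates changes of low genes, and a member was counted by size alone. In CUMS oe-circ against CUMS vehicle, 4 of 103 members were more than 1.5-fold higher and 8 more than 1.5-fold lower. Among all 10920 genes whose mean FPKM reached 2, the shares were 1.38% higher and 2.45% lower, against 3.88% and 7.77% of the members. More than 2-fold, 2 members were higher and 1 was lower, and 0.311% and 0.797% of all genes. The ratio interval also left out 1 for 2 of the higher and 6 of the lower members, and for 1.02% and 2.02% of all genes. In CUMS oe-pep against CUMS vehicle, 6 members were more than 1.5-fold higher and 10 more than 1.5-fold lower, against 1.18% and 1.20% of all genes. More than 2-fold, 2 members were higher and 2 lower, with 0.348% and 0.266% of all genes. The interval left out 1 for 2 of the higher and 8 of the lower members, and for 0.824% and 0.907% of all genes. Both comparisons share the CUMS vehicle library, so a member low or high in that library moves in both.

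The median log2 ratio of the members was -0.02 in CUMS oe-circ and -0.06 in CUMS oe-pep, against 0.01 and -0.01 over all genes. The share past 1.5-fold was highest among members with few reads. Of the 27 members with a mean under 50 reads, 8 were past 1.5-fold in either direction in CUMS oe-circ and 11 in CUMS oe-pep, where all genes of that depth gave 39.3% and 35.5%, so at that depth the members were near the background. Of the 37 members with a mean of 50 to under 200 reads, 2 were past 1.5-fold in CUMS oe-circ and 5 in CUMS oe-pep. The share of all genes in this class was not computed, so these counts were not set against a background. Of the 39 members with a mean of at least 200 reads, 2 (Gm10076 and Malat1) were past 1.5-fold in CUMS oe-circ and 0 in CUMS oe-pep. All genes of that depth gave 1.69% and 0.713%. No p-value was computed. By counting intervals alone the ratio of 13 of 103 members lay above 1 and of 19 below 1 in CUMS oe-circ. In CUMS oe-pep 7 lay above and 21 below. Over all 10920 genes the shares were 19.8% above and 16.1% below in CUMS oe-circ, and 15.6% and 16.5% in CUMS oe-pep. Intervals that leave out 1 were thus common among all genes and not particular to the members. The 82 members within 1.5-fold in both comparisons ran from -0.50 (Gm27032) to 0.51 (Gm20063) in CUMS oe-circ, and from -0.57 (Gm48992) to 0.48 (5033430I15Rik) in CUMS oe-pep, as log2 ratios.

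**Figure D2:**
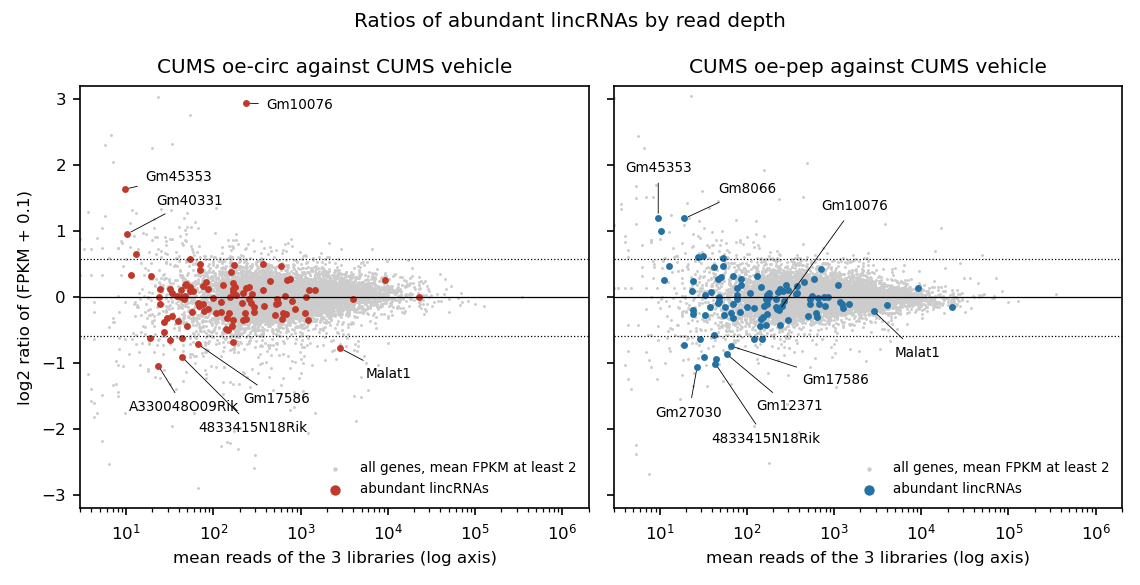
Log2 ratio of FPKM + 0.1 to CUMS vehicle (vertical axis) against the mean reads of the 3 libraries (log axis), for CUMS oe-circ on the left and CUMS oe-pep on the right, with abundant lincRNAs in color, all genes whose mean FPKM reached 2 in grey and dotted lines at 1.5-fold. Beyond the axis limit of 3.2 lie 7 grey genes in CUMS oe-circ and 4 in CUMS oe-pep. The colored points spread widely at few reads and narrowly at many, apart from Gm10076 and Malat1 in CUMS oe-circ.

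Gm10076 is a single-exon gene of 384 bases on the plus strand of chromosome 14 (chr14:105681828-105682211, mm10), which RefSeq calls a pseudogene. It had 547 reads in CUMS oe-circ, 71 in CUMS oe-pep and 90 in CUMS vehicle. The ratio to CUMS vehicle was 7.73 (6.18 to 9.77) in oe-circ and 0.872 (0.630 to 1.20) in oe-pep, so the CUMS oe-circ library was high and the others overlapped. The transcript aligned over 383 bases with 2 mismatches, an identity of 99.5%, to Rpl41, which encodes a small basic protein of the large ribosomal subunit. Counted from the first base of Gm10076, with the base of Rpl41 first, the mismatches were C127T and G234A. The 78-base reading frame at positions 42 to 119 (chr14:105681869-105681946, plus strand) was identical in Rpl41 and is shown with its start and stop codons in capitals, since reads from it cannot be told apart.
Gm10076 and Rpl41: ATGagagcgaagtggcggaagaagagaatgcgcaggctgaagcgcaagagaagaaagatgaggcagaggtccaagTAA

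Rpl41 itself had 2497 reads in CUMS oe-circ, 5171 in CUMS oe-pep and 5612 in CUMS vehicle, with FPKM of 147, 264 and 260. Its ratio was 0.566 (0.540 to 0.593) in oe-circ and 1.02 (0.980 to 1.06) in oe-pep, so it was low in the library where Gm10076 was high. The reads of both genes together, scaled to equal depth, came to 209 CPM in CUMS oe-circ, 313 in CUMS oe-pep and 308 in CUMS vehicle, a ratio of 0.679 (0.650 to 0.710) in oe-circ and 1.02 (0.978 to 1.05) in oe-pep. Gm10076 took 17.97% (exact 95% interval 16.6% to 19.4%) of these reads in CUMS oe-circ, 1.35% (1.06% to 1.71%) in CUMS oe-pep and 1.58% (1.27% to 1.94%) in CUMS vehicle. The level of Gm10076 on its own is thus uncertain, and whether reads were assigned between the copies in the same way in each library was not tested. As a whole, 74 ribosomal protein genes had a median log2 ratio of -0.15 in CUMS oe-circ and -0.05 in CUMS oe-pep. Of them 2 (Rps28 and Rpl41) were more than 1.5-fold lower in CUMS oe-circ and 1 (Rps27a, at -0.78) in CUMS oe-pep. All genes whose mean FPKM reached 2 gave 2.45% lower in CUMS oe-circ and 1.20% in CUMS oe-pep, so these counts are near the background.

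**Figure D3:**
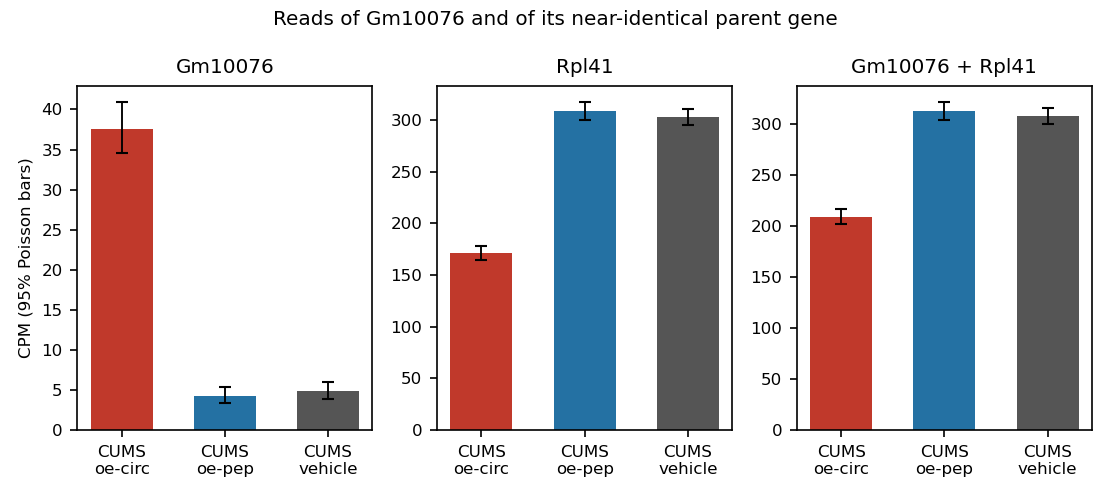
Reads of Gm10076 (left), Rpl41 (middle) and their sum (right) in CPM, reads scaled to equal depth, in the CUMS oe-circ, CUMS oe-pep and CUMS vehicle libraries, each axis starting at 0, with 95% Poisson bars. The sum is 209 in CUMS oe-circ, 313 in CUMS oe-pep and 308 in CUMS vehicle, while Gm10076 alone is highest in CUMS oe-circ.

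Malat1, a nuclear speckle RNA of 6983 annotated bases, had an FPKM of 17.2 in CUMS oe-circ, 25.5 in CUMS oe-pep and 29.5 in CUMS vehicle, from 1748, 2984 and 3814 reads. The 3 libraries did not overlap in their counting intervals, and CUMS oe-circ was the low one. The ratio was 0.583 (0.551 to 0.617) in oe-circ and 0.865 (0.824 to 0.907) in oe-pep. Neat1, which lies beside it on chromosome 19, had an FPKM of 2.74, 3.72 and 3.26 in CUMS oe-circ, CUMS oe-pep and CUMS vehicle. Its ratios were 0.839 (0.768 to 0.917) and 1.14 (1.05 to 1.23), on opposite sides of CUMS vehicle. The libraries were made with an mRNA kit. How evenly it captured Malat1 and Neat1, whose triple helix ends stand in for a poly(A) tail, was not tested. Miat, a brain nuclear RNA, had 6.84, 8.10 and 8.69, with ratios of 0.788 (0.725 to 0.855) and 0.933 (0.865 to 1.01). The summed striatal marker FPKM was also lowest in CUMS oe-circ (313, with 728 in CUMS oe-pep and 837 in CUMS vehicle), and its part in these ratios was not tested.

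The mRNAs of the proteins these RNAs work with showed no member past 1.5-fold, and protein levels were not measured here. The mRNAs of 27 paraspeckle proteins had a median log2 ratio of -0.07 in CUMS oe-circ and -0.06 in CUMS oe-pep. Those of 22 nuclear speckle and SR splicing proteins had -0.03 and 0.00. The medians were -0.07 and -0.09 for mRNAs of the 7 proteins known to bind Miat or Norad. They were 0.03 and -0.04 for mRNAs of the 15 proteins of the Malat1 3′ end or of nuclear RNA decay and methylation. In each of these lists 0 genes were more than 1.5-fold higher or lower in either comparison. Among all genes whose mean FPKM reached 2, 1.38% were higher and 2.45% lower in CUMS oe-circ, and 1.18% and 1.20% in CUMS oe-pep. Rbm4b, Mettl16, Pop1 and Rpp40 lay under that limit, since list genes were counted from a mean FPKM of 0.1. For the other list genes a count of 0 in lists this short is near the background.

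Pantr1 and C230004F18Rik, also members with known names, stayed within 1.5-fold. Pantr1, a divergent neighbor of the cortical transcription factor gene Pou3f3, had 6.49, 6.38 and 5.44 FPKM in CUMS oe-circ, CUMS oe-pep and CUMS vehicle, with ratios of 1.19 (1.04 to 1.37) and 1.17 (1.03 to 1.34). C230004F18Rik (Cdr1os), the precursor from which the circular RNA Cdr1as is made, had 1.95, 2.22 and 2.23, with ratios of 0.876 (0.794 to 0.967) and 0.998 (0.911 to 1.09). It overlaps Cdr1 on the opposite strand, which had 0 reads in all 3 libraries.

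Hosts of snoRNAs that are members were Snhg6, Snhg10, Snhg12, Snhg20 and Epb41l4aos. Snhg6 had an FPKM of 7.56 in CUMS oe-circ, 9.33 in CUMS oe-pep and 9.62 in CUMS vehicle. Snhg20 had 2.85, 3.80 and 3.89, and Snhg12 had 3.03, 3.16 and 4.30. These were low in CUMS oe-circ, with ratios of 0.786 (0.624 to 0.986), 0.734 (0.579 to 0.927) and 0.706 (0.551 to 0.900), and Snhg12 was also low in CUMS oe-pep, at 0.735 (0.582 to 0.924). Snhg10, the host of Scarna13 and miR-3069, had 1.82, 1.69 and 2.86 FPKM from 14, 15 and 28 reads, with ratios of 0.636 (0.309 to 1.25) and 0.592 (0.294 to 1.15) whose intervals hold 1. Epb41l4aos had 9.43, 8.47 and 10.1 FPKM and did not differ beyond counting error. A list of snoRNA hosts by name, the Snhg genes and Gas5 of any biotype, leaves out Epb41l4aos. It had 14 of 17 genes measured, with medians of -0.31 in CUMS oe-circ and -0.02 in CUMS oe-pep. In CUMS oe-circ 0 were more than 1.5-fold higher and 1 lower (Snhg10), and in CUMS oe-pep 1 was higher (Snhg18) and 1 lower (Snhg10). Snhg18 had 16 reads in CUMS oe-circ, 32 in CUMS oe-pep and 21 in CUMS vehicle. Among all genes whose mean FPKM reached 0.1, the limit for list genes, 7.27% were higher and 11.4% lower in CUMS oe-circ, and 8.49% and 9.05% in CUMS oe-pep. Counts of 0 or 1 in a list this short are thus near the background.

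Of the hosts of miRNAs, Snhg10 alone was past 1.5-fold. Mir9-3hg had an FPKM of 6.96 in CUMS oe-circ, 7.37 in CUMS oe-pep and 7.50 in CUMS vehicle, C130071C03Rik had 7.05, 6.87 and 6.96, and Gm3764 had 4.92, 4.86 and 5.93. Of the 3 miR-9 hosts, Gm3764 alone had intervals that left out 1, with ratios of 0.829 (0.731 to 0.940) and 0.819 (0.726 to 0.924). Mir124a-1hg had 7.67, 8.53 and 9.20 FPKM and Mir124-2hg had 6.04, 5.79 and 7.16. Both were low in CUMS oe-circ, with ratios of 0.833 (0.746 to 0.931) and 0.843 (0.753 to 0.942), and in CUMS oe-pep Mir124-2hg was low at 0.808 (0.725 to 0.901) while Mir124a-1hg was at 0.927 (0.836 to 1.03). E130102H24Rik had 3.14, 3.12 and 3.12 FPKM and 4833445I07Rik had 1.93, 2.04 and 2.27, without a difference beyond counting error. The host transcript was measured here and not the mature miRNA. A list of miRNA hosts by name alone, starting with Mir and ending in hg, took genes of any biotype. It leaves out hosts with other names, such as Snhg10, C130071C03Rik and Gm3764. In that list 6 of 10 genes were measured, with medians of -0.01 and -0.14 and 0 past 1.5-fold in either comparison. A count of 0 among 6 genes is near the shares over all genes given above for list genes.

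The remaining members past 1.5-fold in CUMS oe-circ are known by clone or model names alone. Gm48623, whose nearest protein-coding gene is Cplx2, had 5.38 FPKM in CUMS oe-circ, 8.04 in CUMS oe-pep and 8.66 in CUMS vehicle, from 107, 184 and 219 reads, and was low in CUMS oe-circ alone (0.621, 0.489 to 0.787). A330048O09Rik had 1.13, 2.58 and 2.41 FPKM from 11, 29 and 30 reads, a ratio of 0.466 (0.211 to 0.957) in oe-circ and 1.07 (0.619 to 1.84) in oe-pep. Its nearest protein-coding gene is Id4, an inhibitor of basic helix-loop-helix factors, with a log2 ratio of -0.50 in CUMS oe-circ and 0.08 in CUMS oe-pep. Gm44698 had 2.51, 2.18 and 1.55 FPKM from 14, 14 and 11 reads, and its intervals held 1.

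Several members had lower FPKM in both overexpression libraries than in CUMS vehicle, the library that both comparisons share. Gm17586 had 3.56 FPKM in CUMS oe-circ, 3.49 in CUMS oe-pep and 5.89 in CUMS vehicle, from 47, 53 and 99 reads, with ratios of 0.604 (0.417 to 0.863) and 0.592 (0.416 to 0.834). 4833415N18Rik had 1.71, 1.58 and 3.28 FPKM from 29, 31 and 71 reads, with ratios of 0.520 (0.325 to 0.811) and 0.482 (0.306 to 0.746). In both genes the overexpression libraries overlapped each other and CUMS vehicle was the high library. 3110039M20Rik had 2.42, 1.92 and 3.75 FPKM, with ratios of 0.645 (0.414 to 0.989) and 0.511 (0.323 to 0.794). It overlaps the low gene model Gm43517 on the same strand. Gm44053 had 1.78, 1.48 and 2.85 FPKM, with ratios of 0.623 (0.366 to 1.04) and 0.519 (0.302 to 0.868).

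Others were higher in both. Gm45353 had 3.55 FPKM in CUMS oe-circ, 2.61 in CUMS oe-pep and 1.07 in CUMS vehicle, but from 13, 11 and 5 reads, with ratios of 3.31 (1.11 to 11.8) and 2.43 (0.779 to 8.93). Gm40331 had 3.48, 3.58 and 1.74 FPKM from 11, 13 and 7 reads, and both of its intervals held 1. 1700096K18Rik had 2.55, 2.59 and 1.67 FPKM from 54, 63 and 45 reads, with ratios of 1.53 (1.01 to 2.32) and 1.55 (1.04 to 2.32). On the log2(FPKM + 0.1) scale it passed 1.5-fold in CUMS oe-pep, at 0.60, and fell just short of it in CUMS oe-circ, at 0.58.

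In CUMS oe-pep alone, Gm12371, a divergent neighbor of the neuronal cell-surface gene Lingo2, had 2.02 FPKM, with 4.03 in CUMS oe-circ and 3.76 in CUMS vehicle, a ratio of 0.538 (0.353 to 0.807). AC163032.1 had 1.81 FPKM in CUMS oe-pep, 2.71 in CUMS oe-circ and 2.86 in CUMS vehicle, a ratio of 0.633 (0.483 to 0.826). Gm27030 had 2.19 FPKM in CUMS oe-pep, 3.55 in CUMS oe-circ and 4.66 in CUMS vehicle, from 17, 24 and 40 reads, a ratio of 0.470 (0.25 to 0.847). Gm8066 was the high one, with 3.69 FPKM in CUMS oe-pep, 1.98 in CUMS oe-circ and 1.56 in CUMS vehicle, from 30, 14 and 14 reads, a ratio of 2.37 (1.22 to 4.83). Gm27030 and Gm8066 rest on few reads. Gm17750 had 4.63 FPKM in CUMS oe-pep, 3.25 in CUMS oe-circ and 2.96 in CUMS vehicle, a ratio of 1.56 (0.948 to 2.61). Gm45619 had 4.41, 1.95 and 2.87 in that order, a ratio of 1.54 (0.923 to 2.60), and Gm6712 had 2.31, 2.89 and 3.64, a ratio of 0.635 (0.363 to 1.09). The intervals of these last 3 held 1, so counting error alone covers them.

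Gm26917 had 2.77 FPKM in CUMS oe-circ, 2.08 in CUMS oe-pep and 3.28 in CUMS vehicle, with ratios of 0.844 (0.673 to 1.05) and 0.635 (0.501 to 0.801). It ends 11 bases before CT010467.1, an 18S ribosomal RNA related gene on the other strand, whose FPKM was 406 in CUMS oe-circ, 567 in CUMS oe-pep and 274 in CUMS vehicle. The lincRNA was thus lowest in the library where the ribosomal gene beside it was highest, and the part of ribosomal RNA reads in its value was not tested.

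**Figure D4:**
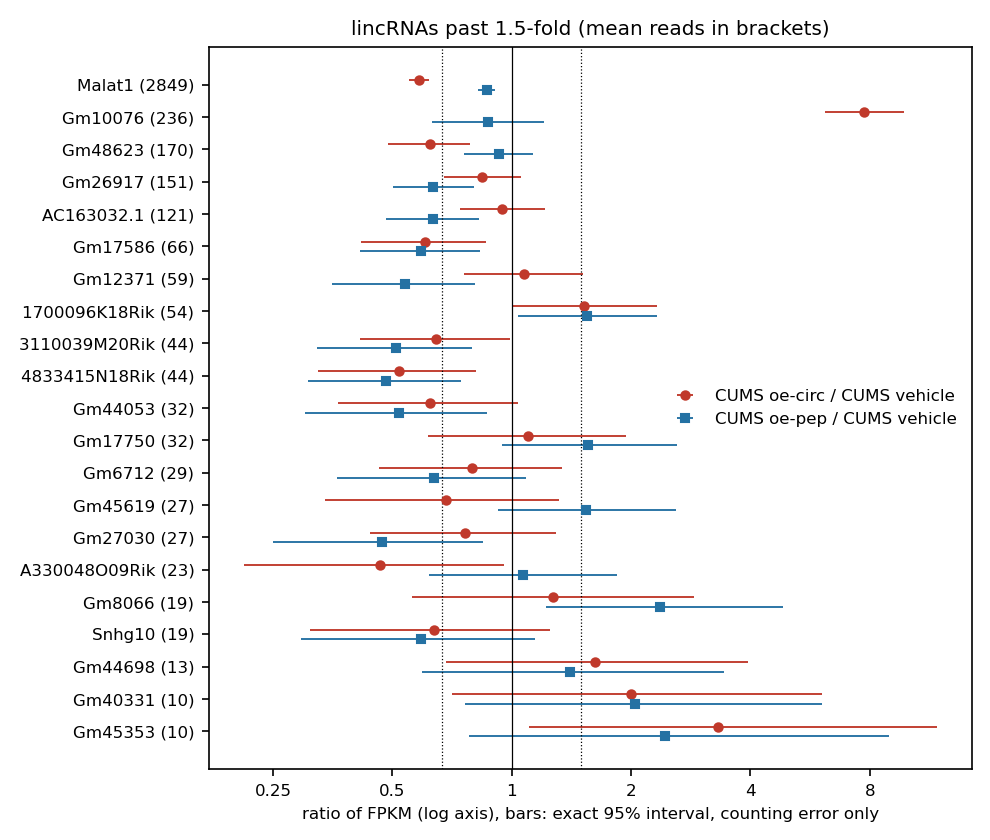
Ratio of FPKM to CUMS vehicle (log axis) with its exact 95% interval for every abundant lincRNA past 1.5-fold in CUMS oe-circ or CUMS oe-pep, ordered by mean reads, which stand in brackets. Malat1 and Gm10076 at the top have short intervals away from 1 in CUMS oe-circ, while the members at the bottom, with about 10 reads, have intervals that span several fold.

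The nearest protein-coding gene of each member, chosen by distance between start sites, was used to see whether its neighbor moved as well. Of these neighbors 76 had a mean FPKM of at least 2, and 0 were more than 1.5-fold higher or lower in either comparison. All genes at that limit gave 1.38% higher and 2.45% lower in CUMS oe-circ, and 1.18% and 1.20% in CUMS oe-pep. The median log2 ratio of the 76 was 0.01 in CUMS oe-circ and 0.01 in CUMS oe-pep. The ranges ran from -0.50 (Meis2) to 0.54 (Mef2c) and from -0.33 (Lingo2) to 0.51 (Kif13b). A gene nearest to several members, such as Polg, is counted for each of them. Neighbors under the limit were not counted, and some were past 1.5-fold. Slc13a4, nearest to 1810058I24Rik, had log2 ratios of 1.12 and 0.78. BC005561, nearest to D930016D06Rik, had -0.66 and 0.29.

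In 21 members the start site lay within 1000 bases of a protein-coding gene that runs the other way, an arrangement from which both transcripts can start at a shared promoter. The log2 ratios of these partners ran from -0.23 (Cacng6) to 0.37 (Myl6b) in CUMS oe-circ and from -0.22 (Klhl29) to 0.26 (Kmt2e) in CUMS oe-pep. Of the 21 partners 0 were past 1.5-fold, which is near the low shares over all genes given above. Gm17586, with log2 ratios of -0.71 and -0.74, starts 168 bases from Mafg, a small Maf transcription factor gene, which had 17.1 FPKM in CUMS oe-circ, 17.4 in CUMS oe-pep and 17.5 in CUMS vehicle. Snhg10, with -0.63 and -0.72, starts 409 bases from Glrx5, a mitochondrial iron-sulfur cluster gene, which had 14.1, 13.9 and 13.9. The partners of both were nearly level over the 3 libraries, and the intervals of Snhg10, on 14, 15 and 28 reads, held 1.

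**Figure D5:**
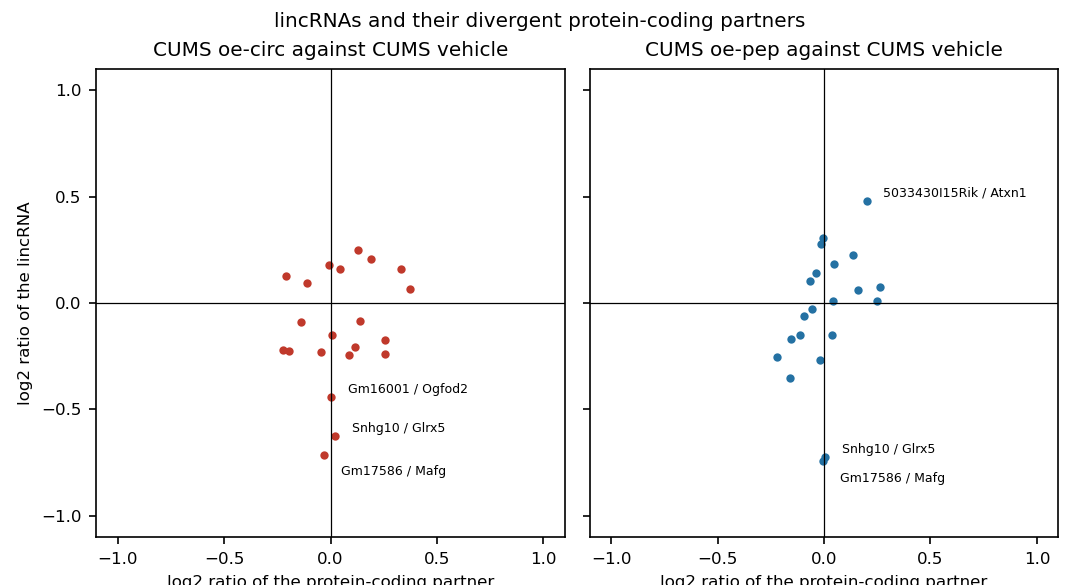
Log2 ratio of a lincRNA (vertical axis) against that of its divergent protein-coding partner within 1000 bases (horizontal axis), 21 pairs, for CUMS oe-circ against CUMS vehicle on the left and CUMS oe-pep against CUMS vehicle on the right. The partners stay between -0.23 and 0.37, while Gm17586 and Snhg10 lie below them in both panels.

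Parts of the set rest on shared or overlapping sequence. A copy elsewhere of at least 95% identity over at least 50% of the transcript was found for 3 members, Gm10076, Gm6712 (Gm5165, Zfp97 and Zfp960 on chromosome 17) and Norad. The Norad copy is Gm7292, 99.2% identical over 51.6% of the transcript, with 68 reads in CUMS oe-circ, 56 in CUMS oe-pep and 84 in CUMS vehicle, few beside those of Norad. A protein-coding gene overlapped 12 members, 9 of them on the opposite strand and 3 on the same strand (Gm27030, Gm45353 and 3110039M20Rik). The strand setting of the counting is not given in the sources used here, so for overlaps on opposite strands, such as Snhg6 with Mcmdc2, Gm45619 with Lin7b and Gm8066 with Epo, reads of the 2 genes may not be told apart.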

How the data were processed

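PrL RNA was sequenced as 3 libraries, 1 per group, grouped by the vector in the sample labels and made with a stranded mRNA kit. The mm10 genome and featureCounts 1.6.3, HISAT2 2.1.0 and cutadapt 2.5 are listed in the processing notes of the submitters, and the paper's methods name RMA and limma, neither of them used here. The authors deposited FPKM and gene length per gene. FPKM times length gave whole multiples of 1 step in each library, so reads were recovered, and 1 read per kilobase was worth 0.0687 FPKM in CUMS oe-circ, 0.0597 in CUMS oe-pep and 0.0540 in CUMS vehicle.

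Ratios were taken on log2(FPKM + 0.1). Intervals at 95% were exact conditional binomial (Clopper-Pearson) for ratios and exact Poisson for levels, covering counting error only. No count model and no test of groups was run, and the steps were tested on simulated data. A list gene was measured at a mean FPKM of at least 0.1. The members and gene lists were chosen with earlier results of these data known. Named were the 10 highest members, those past 1.5-fold in either comparison, hosts of small RNAs, and members with a known role. Rpl41, the other ribosomal protein genes, CT010467.1 and other genes beside members were added after their values were seen. Copies were searched with blastn 2.17.0, and sequences came from GENCODE vM21 and RefSeq. The software was matplotlib 3.10.9, scipy 1.17.1, pandas 2.3.3, numpy 2.4.6 and Python 3.11.15. Alternatives tried were a pseudocount of 0.01 or 1, 2 other scalings, other limits on FPKM or reads, Meg3 included, and members without protein-coding overlap. Leaving out the members with copies was added after seeing the data.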

Additional observations from a re-analysis of the deposited data

How the results depend on the processing

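The median log2 ratio of the members stayed within its order-statistic interval under all alternatives run. Named members were run under 4 of them, the 2 pseudocounts and the 2 scalings, and their 352 values stayed within the counting intervals. None of those past 1.5-fold changed sign, but these alternatives could not have changed it. A pseudocount keeps the sign of a ratio, and the scalings shifted log2 ratios by no more than 0.014. Both scalings turned the sign of 3 ratios near 0, Norad and Tmem250-ps in CUMS oe-circ and C230004F18Rik in CUMS oe-pep. Counts of members past a fold moved with the limits. In CUMS oe-circ, with 4 higher and 8 lower past 1.5-fold and 2 and 1 past 2-fold as reported, a pseudocount of 1 gave 5 lower past 1.5-fold and 0 lower past 2-fold. In CUMS oe-pep, with 6 and 10 past 1.5-fold and 2 and 2 past 2-fold, a pseudocount of 1 gave 3 higher and 6 lower past 1.5-fold and 0 and 0 past 2-fold. Equal sums of protein-coding genes gave 1 lower past 2-fold in CUMS oe-pep, since 4833415N18Rik, at -1.01 on the log2 scale, moved to -0.99. A mean FPKM of at least 5 left 42 members, with 1 higher and 2 lower past 1.5-fold and 1 and 0 past 2-fold in CUMS oe-circ, and 0 in every count of CUMS oe-pep. All genes at that limit gave 0.827%, 1.61%, 0.187% and 0.454% in CUMS oe-circ, and 0.627%, 0.494%, 0.173% and 0.0934% in CUMS oe-pep, in the same order. A mean FPKM of at least 1 took 221, with 17 higher and 22 lower past 1.5-fold and 7 and 5 past 2-fold in CUMS oe-circ, and 17, 22, 5 and 6 in CUMS oe-pep, where all genes gave 2.19%, 3.76%, 0.629% and 1.34% in CUMS oe-circ, and 2.1%, 2.19%, 0.691% and 0.691% in CUMS oe-pep. A mean of at least 0.1 took 965, with 166, 233, 85 and 143 in CUMS oe-circ and 182, 215, 89 and 114 in CUMS oe-pep, where all genes gave 7.27%, 11.4%, 3.5% and 6.42%, and 8.49%, 9.05%, 4.54% and 4.93%. The 59 members with a mean of at least 100 reads gave 1 higher and 2 lower past 1.5-fold and 1 and 0 past 2-fold in CUMS oe-circ, and 0, 2, 0 and 0 in CUMS oe-pep, where all genes of that depth gave 0.619%, 1.62%, 0.0197% and 0.472%, and 0.423%, 0.560%, 0.0688% and 0.0786%. The 91 members that overlap no protein-coding gene gave 1 higher past 2-fold in CUMS oe-circ, and 3 higher past 1.5-fold and 0 higher and 1 lower past 2-fold in CUMS oe-pep. Leaving out Gm10076, Gm6712 and Norad, chosen after seeing the data, gave 1 higher past 2-fold in CUMS oe-circ. The limits take other genes and a larger pseudocount shrinks the ratios of low genes, by their construction.

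No paired analysis was possible because each group has 1 library, and leaving out a replicate was not run for the same reason. Depth limits the members with few reads, 6 of which had a mean under 20 reads. Their ratio intervals are wide, such as 1.22 to 4.83 for Gm8066 in CUMS oe-pep and 0.708 to 6.08 for Gm40331 in CUMS oe-circ. The smallest difference detectable at that depth was not computed.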

Other observations

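Long noncoding RNAs outside the set were read in the same way, chosen after their values had been seen. Meg3, the imprinted lincRNA left out of the set, had an FPKM of 24.99 in CUMS oe-circ, 33.9 in CUMS oe-pep and 40.6 in CUMS vehicle, with ratios to CUMS vehicle of 0.615 (0.597 to 0.633) and 0.834 (0.813 to 0.856). Sox1ot, transcribed across the neural progenitor gene Sox1, had 1.79, 2.69 and 3.72 FPKM in the same order, with ratios of 0.480 (0.405 to 0.568) and 0.722 (0.627 to 0.831). Firre, a nuclear RNA of the X chromosome, had 2.66, 3.63 and 3.83, with ratios of 0.695 (0.604 to 0.798) and 0.948 (0.840 to 1.07). Sox2ot had 1.83, 2.93 and 2.43, with ratios of 0.751 (0.650 to 0.866) and 1.20 (1.07 to 1.36), so CUMS oe-circ was the low library for each of these. Gm45606, an antisense gene on chromosome 11, ran the other way, with 5.58, 4.68 and 3.54 FPKM and ratios of 1.58 (1.29 to 1.93) and 1.32 (1.08 to 1.62).

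Tug1 and Gas5 were level, Tug1 with 10.5 FPKM in CUMS oe-circ, 9.75 in CUMS oe-pep and 10.1 in CUMS vehicle, and Gas5 with 10.1, 10.9 and 10.7. Dlx6os1, transcribed at the interneuron genes Dlx5 and Dlx6, had 3.36, 3.41 and 3.70, with both intervals holding 1. Of 68 antisense genes whose mean FPKM reached 2, 6 were past 1.5-fold upward and 5 downward in CUMS oe-circ, and 4 higher and 5 lower in CUMS oe-pep. Of 53 processed transcripts 2 were higher and 1 lower in CUMS oe-circ, and 2 higher and 3 lower in CUMS oe-pep. All genes at that limit gave 1.38% higher and 2.45% lower in CUMS oe-circ, and 1.18% and 1.20% in CUMS oe-pep. Noncoding classes with fewer genes are not listed. Read depth was not matched in these counts.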
